A study of Mus musculus with 18 samples.

Results

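Cell division in the crypt was read here through 41 mitosis and spindle genes, chosen by name from a list of regulators of the G2 and M phases and of the kinetochore, spindle and cytokinesis machinery. All 41 were present as single rows among the 43346 genes of the count table, and all were among the 26717 genes with a mean count above 0 that entered the tests. Their raw counts ran from 57 to 44369 per library, so that no member fell below a filter in any library. The libraries came from crypts of untreated C57BL/6 mice of 8 to 20 weeks that carry the Lgr5_eGFP_Iris_creERT2 allele, which places GFP and a tamoxifen-inducible Cre under the Lgr5 locus. Age and strain are those of the labels, whereas the methods of the study allow older mice and a mixed background for this experiment. No tamoxifen group was part of these data, and the allele is known to be active in only some crypts. EPCAM-positive cells of the small intestine (SI) and the large intestine (LI) were sorted by GFP brightness into high, medium and low cells, which the study takes to be cells of the crypt centre, of the border and beyond row 3 (row>3). Position was thus inferred from GFP and was not measured on the sorted cells. There were 18 RNA-seq libraries, 3 replicates in each of the 6 groups: SI centre, SI border, SI row>3, LI centre, LI border and LI row>3.

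A cell enters mitosis when cyclin B and cyclin A activate the kinase CDK1. The kinetochores then attach chromosomes to the spindle, the spindle checkpoint holds back the anaphase promoting complex (APC/C) until all are attached, and the central spindle and contractile ring divide the cell. Transcripts of these genes accumulate mainly in G2 and M, so that in bulk RNA they follow both how many cells are in those phases and how much RNA each cell holds. Fewer cells in division and less of these RNAs per dividing cell cannot be told apart in these libraries. In the crypt, Lgr5-positive cells at the base cycle, as do the transit-amplifying cells above them, whereas goblet cells, Paneth cells and mature enterocytes do not divide.

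Many genes of this kind carry the same short promoter elements: the cell cycle genes homology region (CHR; TTTGAA, less often TTCGAA), which is bound by the DREAM and B-MYB-MuvB complexes, and the CCAAT box bound by NF-Y. RefSeq promoter windows (GRCm38.p6, 250 bases before to 50 after the start) were at hand for 34 of the 41 genes. Stretches of 110 bases that lie before the RefSeq start and outside every exon of the GENCODE M21 annotation are printed here, 5' to 3' on the strand of the gene, with matches to the motifs on either strand in capitals (TTCAAA and ATTGG are the other-strand forms). The first 5 are those in which such a stretch held both elements. They are Cdc20 (chr4:118437353-118437462, minus strand), Cdk1 (chr10:69352939-69353048, minus strand), Ckap2 (chr8:22185820-22185929, minus strand), Kif11 (chr19:37376272-37376381, plus strand) and Top2a (chr11:99024190-99024299, minus strand). Ttk (chr9:83834579-83834688, plus strand) is the gene with the lowest fold change in SI row>3, and Nuf2 (chr1:169531465-169531574, minus strand) held none of the motifs.
Cdc20: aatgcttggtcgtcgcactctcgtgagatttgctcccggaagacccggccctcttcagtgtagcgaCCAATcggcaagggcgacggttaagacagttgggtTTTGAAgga
Cdk1: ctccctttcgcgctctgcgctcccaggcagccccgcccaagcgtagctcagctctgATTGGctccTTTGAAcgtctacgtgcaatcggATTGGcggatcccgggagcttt
Ckap2: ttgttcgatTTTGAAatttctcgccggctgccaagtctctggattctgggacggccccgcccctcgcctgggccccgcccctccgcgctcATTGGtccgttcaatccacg
Kif11: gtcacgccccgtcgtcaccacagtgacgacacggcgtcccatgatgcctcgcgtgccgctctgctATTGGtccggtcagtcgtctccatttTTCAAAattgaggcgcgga
Top2a: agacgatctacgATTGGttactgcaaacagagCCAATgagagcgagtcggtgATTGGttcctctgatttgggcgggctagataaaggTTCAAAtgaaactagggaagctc
Ttk: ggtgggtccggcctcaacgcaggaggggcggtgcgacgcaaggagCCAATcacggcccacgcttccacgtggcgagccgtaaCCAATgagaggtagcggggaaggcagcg
Nuf2: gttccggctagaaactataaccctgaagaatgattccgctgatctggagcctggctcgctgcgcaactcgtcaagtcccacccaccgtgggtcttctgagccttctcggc

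Over the full windows, TTTGAA was found on at least 1 strand in 26 of the 34 genes, which is 76.5% of them against 20.2% of the 27025 genes with a window. CCAAT was likewise found in 26, against 41.1% of all genes, and both together in 22, against 7.97% of all genes. TTCGAA, which reads the same on both strands, was found in Bub1, Bub1b and Top2a, against 1.80% of all genes. Matches overlapped each other in 2 places, a CHR with a CCAAT box in Cdca8 and a pair of CCAAT boxes in Ube2c. In Cdc20, Kif11 and Top2a the order in the printed stretch was the same, a CCAAT box first and the CHR closer to the start, with its first base at -18, -19 and -23 from it. Outside its printed stretch Cdc20 had another CCAAT box, with its first base at -8, closer to the start than its CHR. In the printed stretch of Cdk1 the CHR lay between its CCAAT boxes. A further CHR of Cdk1, with its first base at -15 and outside that stretch, lay closer to the start than these boxes. In Ckap2 the CHR lay farther from the start than the box. The TTTGAA match began within 50 bases of the start on either side in 23 of the 34 genes, against 5.72% of all genes. Many of these lie after the start, and when only the 250 bases before it were searched the count was 12 of 34, against 18.3% of all genes, while that of CCAAT remained 26. Birc5, Mad2l1, Nuf2 and Nusap1 held none of the 3 letter strings in the window.

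**Figure D1:**
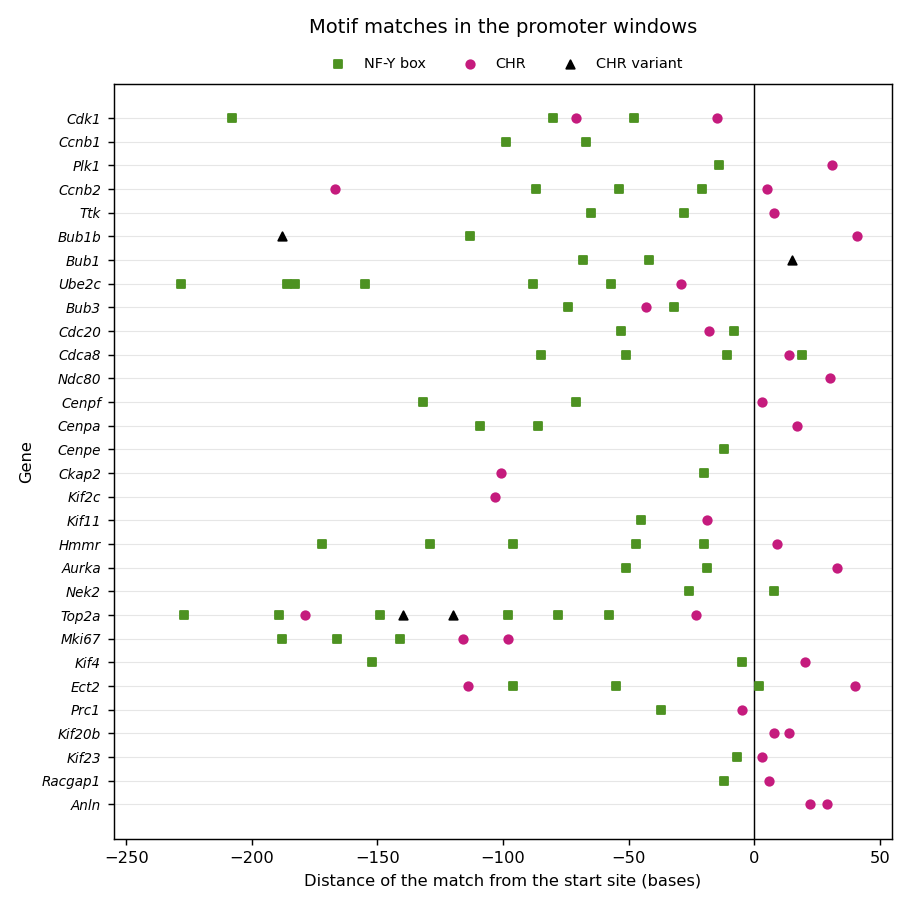
Motif matches in the promoter windows of the 30 genes with at least 1 match, as distance in bases from the RefSeq start (vertical line, from 250 before to 50 after; for genes with several starts the outermost is shown). Squares are NF-Y boxes, circles the CHR and triangles its variant with a C; the circles gather near the start, where 23 of 34 genes have one, and most squares lie before them.

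The depth was 8312093 to 31940965 counts per library. The labels were checked against markers. Lgr5 itself was counted at 2434 to 5252 (normalised counts) in SI centre, 157 to 2028 in SI border and 28.1 to 279.6 in SI row>3, and at 2176 to 2575, 1184 to 1676 and 134 to 466 in the 3 LI groups. SI border replicate 3 was thus below SI row>3 replicates 1 and 2. The 4 epithelial markers (Epcam, Cdh1, Krt8, Krt18) summed to at least 2421 CPM (counts scaled to a common library size) in every library, and immune and stromal markers to at most 27.7 and 18.1 CPM. The 3 SI libraries of replicate 3 stood apart on 51 genes of the LI. Each of these genes had at least 20 CPM in every LI centre library. Its LI centre mean was at least 20 times its level in SI centre replicate 1. The 0.835% of the LI level found in SI centre replicate 1 was thus kept low by this choice. In the other SI libraries of replicates 1 and 2 the median of these genes was at 1.75% to 4.92% of the LI level. In replicate 3 it was at 60.7% in SI centre, 84.4% in SI border and 86.1% in SI row>3. Results on the SI are therefore also given without the SI libraries of replicate 3.

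As 1 value per library, the mean of log2(CPM + 1) over the 41 genes after each gene's own mean was subtracted fell in the order centre, border, row>3 within each replicate number at both sites. In the SI it was 0.43, 0.57 and -0.064 in centre replicates 1 to 3, -0.075, 0.30 and -0.21 in border and -0.51, -0.051 and -1.34 in row>3. In the LI it was 0.12, 0.48 and 0.24 in centre, -0.042, 0.37 and 0.23 in border and -0.48, 0.15 and -0.12 in row>3. Between replicate numbers the levels overlapped, since replicate 2 was the highest at both sites in all 3 groups and SI row>3 replicate 2 stood slightly above SI centre replicate 3. SI row>3 replicate 3, 1 of the libraries that stood apart, was the lowest of all 18. As group means this was 0.31 ± 0.33 (SD, n = 3) in SI centre, 0.0051 ± 0.27 in SI border and -0.63 ± 0.65 in SI row>3, and 0.28 ± 0.18, 0.19 ± 0.21 and -0.15 ± 0.32 in the LI. Over replicates 1 and 2 alone the SI means were 0.50 ± 0.10 (SD, n = 2), 0.11 ± 0.27 and -0.28 ± 0.33. The 41 genes took up 0.376% to 0.673% of all counts in SI centre and 0.128% to 0.420% in SI row>3.

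**Figure D2:**
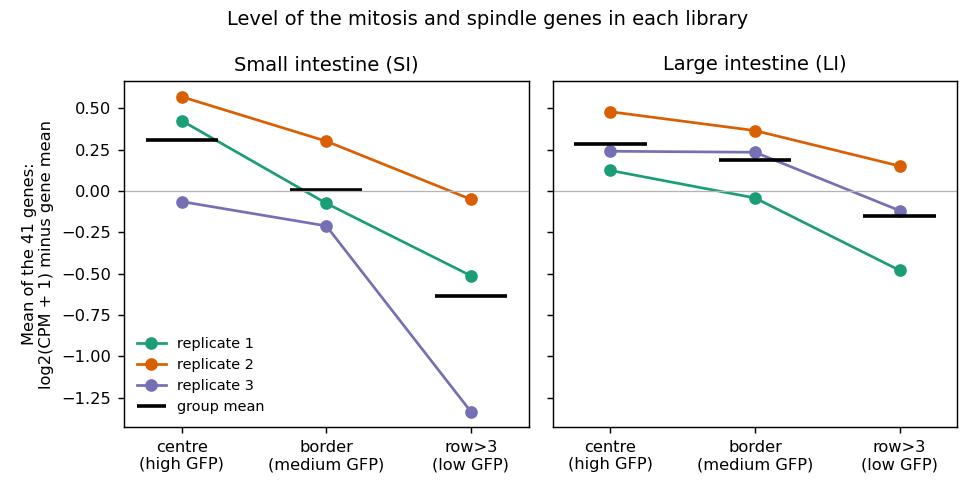
Level of the 41 genes in each of the 18 libraries, as the mean over genes of log2(CPM + 1) minus the gene's mean over all libraries (vertical axis), in centre, border and row>3 (horizontal axis) of the SI (left) and the LI (right). Each point is 1 library, lines join libraries of the same replicate number and black bars are group means (n = 3); every line descends from centre to row>3, and SI row>3 replicate 3 is the lowest point, at -1.34.

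The comparison of row>3 with centre asks whether cells with the lowest GFP hold less mitotic RNA than the Lgr5-high cells of the crypt base. In the SI all 41 genes were estimated lower in row>3 and 20 of them fell (edgeR quasi-likelihood test, Benjamini-Hochberg adjusted p under 0.05 over all genes tested), and none rose. Over all genes tested 5.82% were called lower, and 12.2% of the 9086 genes at or above the level of the lowest member. The median log2 fold change of the 41 genes was -0.84, a fold of 0.557, where that of the 9086 genes was 0.049. The 20 genes include the checkpoint kinases Ttk and Bub1b, the Aurora kinase Aurkb, the kinetochore genes Ndc80, Nuf2 and Cenpf, the motors Kif11, Kif2c and Kif20b, and Ect2 and Prc1 of the dividing cell's midzone. They also include Ckap2, Bub1, Cdca8, Racgap1, Tpx2, Anln, Mad2l1, Mki67 and Nusap1. The lowest estimate was that of Ttk (-1.35) and the highest that of Ccnb2 (-0.40). Every SI row>3 library was below every SI centre library in 18 of the 41 genes, against 12.3% of all genes tested. Over replicates 1 and 2 alone this held in 40 of them, all but Plk1, against 22.9% of all genes. Both counts were made on TMM-scaled CPM, whereas statements on the overlap of single genes refer to the normalised counts printed beside them.

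Since libraries of the same number and site deviated together, the test was repeated with a block for the replicate number inside each site. Then 40 of the 41 genes fell, all but Nek2 (edgeR adjusted p = 0.0652), and 10.5% of all genes were called lower. Calls given with no other fit named are those of edgeR on all 18 libraries without the block. DESeq2 called 26 genes, against 11.5% of the genes to which it gave an adjusted p, and these include the 20. The other 6 were Cdk1, Incenp, Kif20a, Kif23, Top2a and Dlgap5. Without the 3 SI libraries of replicate 3, edgeR called 23 genes lower, against 7.09% of all genes, and the median was -0.77. They were 19 of the 20, all but Anln (edgeR adjusted p = 0.0555), together with Cdc25c, Kif20a, Kif23 and Top2a. With the block and without these libraries, a fit chosen after seeing the data, 37 were called lower, against 10.6% of all genes. The number of calls depended on single libraries, although the estimates of all 41 genes stayed below 0. It was 6 without SI row>3 replicate 1 (against 2.92% of all genes), 7 without SI row>3 replicate 3 (4.11%), 7 without SI centre replicate 2 (3.95%), 9 without SI centre replicate 1 (3.53%), 25 without SI centre replicate 3 (6.35%) and 32 without SI row>3 replicate 2 (5.41%). Where 1 of the 20 calls was lost in an alternative, it was lost without at least 1 of the first 4 of these libraries. Mad2l1, Tpx2, Anln, Mki67 and Nusap1 also lost it with no filter on low counts, Mki67 and Nusap1 with library size alone and Mki67 with RLE factors. Nusap1 also lost it with an older form of the edgeR fit that was added after seeing the data. Within the pairs, row>3 was below centre in all 3 SI replicates in 40 of the 41 genes, all but Plk1, against 19% of all genes tested. In replicates 1 and 2 alone it was again 40, against 26.7% of all genes. The median differences of the 41 genes were -0.91, -0.62 and -1.30 in replicates 1, 2 and 3 on the log2(CPM + 1) scale.

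In the LI all 41 genes were again estimated lower in row>3, with a median log2 fold change of -0.44, from -0.77 in Ckap2 to -0.15 in Racgap1, but none was called by edgeR or by DESeq2. An unadjusted p under 0.05 was reached by 5 genes with either tool, and with edgeR by 6.96% of all genes, and the smallest edgeR adjusted p was 0.620 (Kif23). Over all genes tested 0.0187% were called lower. With the replicate block 10 genes fell (Cdk1, Cenpf, Kif11, Kif20a, Kif23, Top2a, Ndc80, Ect2, Ckap2 and Nusap1), against 1.31% of all genes. In the fit without the SI libraries of replicate 3 the LI median was -0.45, and Top2a was called (edgeR adjusted p = 0.0238), against 0.917% of all genes. With the block as well, 23 genes were called lower, against 3.04%. Every LI row>3 library was below every LI centre library in 14 genes, against 7.07% of all genes. Within the pairs, row>3 was below centre in all 3 LI replicates in 40 of the 41 genes, all but Bub3, against 15.4% of all genes, with median differences of -0.54, -0.34 and -0.38.

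All 41 genes had a lower estimate in the SI than in the LI for this comparison, but the difference between the sites was not called for any of them by edgeR, which called 0% of all genes tested. The median of the differences was -0.44, from -0.82 in Nuf2 to -0.084 in Plk1. Only Aurkb had an unadjusted p under 0.05 (edgeR adjusted p = 0.699), as had 6.74% of all genes, and DESeq2 gave 1 such gene and no call. With the replicate block, Racgap1 was called (edgeR adjusted p = 0.0375), against 0.808% of all genes. Without the SI libraries of replicate 3 the median of the differences was -0.34 and 40 of the 41 were below 0, with no call and 4 genes at an unadjusted p under 0.05, as were 11.9% of all genes, and the block then gave 2 calls, against 2.19% of all genes. In that difference no marker of the other cell types was called in the fit to all libraries. The block called 2 enterocyte, 1 enteroendocrine and 1 stromal markers higher in the SI, against 1.51% of all genes. The fit without the SI libraries of replicate 3 called 3 enterocyte, 4 goblet and 3 tuft markers higher, against 2.57%. It also called 2 epithelial, 1 immune and 1 stromal markers higher and 1 crypt base marker lower.

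**Figure D3:**
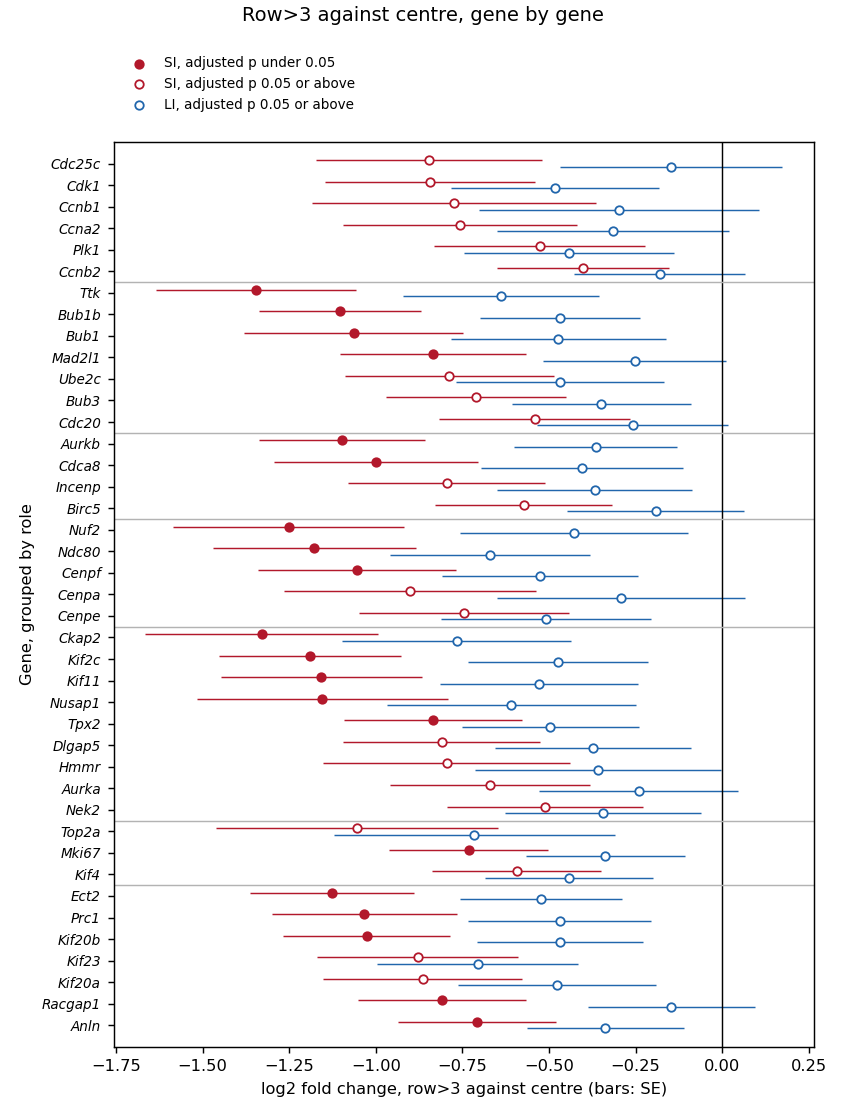
Log2 fold change of row>3 against centre (horizontal axis, n = 3 libraries a group) for each of the 41 genes. Bars are the SE, derived from the fold change and the F statistic of the edgeR test. Genes are grouped by role from top to bottom: mitotic entry, checkpoint and APC/C, chromosomal passenger complex, centromere and kinetochore, spindle, chromosome structure, cytokinesis. SI is red and LI blue, and filled points have an adjusted p under 0.05; every point lies left of 0, and the 20 filled points are all of the SI.

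Markers of other cell types moved with the same comparison. The 7 goblet markers summed to 674 to 10030.3 CPM in SI centre and 31084 to 50710.2 CPM in SI row>3, with 6 of the 7 called higher and 1 lower, where 7.35% of all genes tested were called higher. The 12 enterocyte markers summed to 96.9 to 422 and 772 to 3479 CPM, with 4 called higher, and the 7 Paneth markers, none called, to 1791 to 8447 and 223 to 4831 CPM. No gene of these 3 lists was at 0 in either SI group. In the LI the goblet markers summed to 6733 to 10689.9 CPM in centre and 14917 to 23459 CPM in row>3, and none was called. The enterocyte markers, none called, summed there to 359.6 to 514 and 1064 to 1762 CPM with Apoa4 at 0 in both groups, and the Paneth markers to at most 12.5 CPM, with Lyz1, Defa17, Defa22 and Defa24 at 0 in LI centre. The 6 enteroendocrine and the 6 tuft markers had 1 gene each called higher in SI row>3, and the 4 epithelial markers had 2. Of the 5 markers of Lgr5-positive crypt base cells, 3 were called lower in SI row>3 and none in LI row>3. Over all genes tested 5.82% were called lower in the SI and 0.0187% in the LI. All 5 markers were estimated lower at both sites, with a median log2 fold change of -3.68 in the SI and -2.57 in the LI. Without the SI libraries of replicate 3, the goblet markers summed to 674 to 1148 CPM in SI centre and 35236 to 50710.2 CPM in SI row>3, the enterocyte markers to 96.9 to 289 and 772 to 1976 CPM and the Paneth markers to 1791 to 8447 and 3339 to 4831 CPM. In that fit 6 goblet, 6 enterocyte, 1 Paneth, 3 enteroendocrine and 5 tuft markers were called higher, against 9.97% of all genes. So were 3 of the 4 epithelial, 1 immune and 1 stromal markers. Called lower were 1 goblet, 1 immune and all 5 crypt base markers. In the LI, that fit called 4 crypt base and 1 goblet marker lower and 1 enterocyte and 1 epithelial marker higher in row>3. With the replicate block, 6 goblet, 10 enterocyte, 4 enteroendocrine and 1 tuft markers were called higher in SI row>3, against 12.4% of all genes. The block also called 3 of 4 epithelial and 1 stromal markers higher, and 1 goblet, 1 immune and all 5 crypt base markers lower. In LI row>3 the block gave 2 enterocyte markers called higher, against 1.28% of all genes, and 4 crypt base and 1 goblet markers lower. The part of these cells in the fall of the mitotic genes was not tested.

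Among the 6 genes of mitotic entry (cyclins, CDK1 and the enzymes that switch it on) none was called in the SI in the fit to all libraries and all 6 with the block, and Cdc25c was called without the SI libraries of replicate 3 (edgeR adjusted p = 0.0226). Per length of annotated exon Ccnb2, which encodes cyclin B2, was the highest of them, at 31.2 CPM per kb over all libraries, and Cdc25c, the phosphatase that removes the inhibitory phosphates of CDK1, was the lowest of all 41, at 1.75. Ccnb1 encodes cyclin B1 (chromosome 13, 100778650 to 100786570, minus strand; positions are those of GENCODE M21 on GRCm38). Its normalised counts in replicates 1, 2 and 3 were 752, 935 and 537 in SI centre, 522, 712 and 677 in SI border and 436, 601 and 251 in SI row>3. In the LI, Ccnb1 was at 430.5, 1054 and 867 in LI centre, 520.0, 1113 and 837 in LI border and 334, 852 and 728 in LI row>3. The groups overlapped at both sites, and LI replicate 1 was the lowest LI library in each group. The estimates were -0.77 ± 0.41 (SE) in the SI (edgeR adjusted p = 0.283, with the block 0.00259) and -0.30 ± 0.41 (SE) in the LI (edgeR adjusted p = 0.969).

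Ccna2 encodes cyclin A2, which acts in both S phase and G2 (chromosome 3, 36564865 to 36572150, minus strand). The normalised counts of Ccna2 were 2055, 1857 and 1218 in SI centre, 1199, 1568 and 1137 in SI border and 1194, 1285 and 545 in SI row>3. In the LI, Ccna2 stood at 1638, 2284 and 2475 in LI centre, 1578, 2347 and 2339.7 in LI border and 934, 2218 and 1974 in LI row>3. SI row>3 replicates 1 and 3 and LI row>3 replicate 1 lay below all centre libraries of their site, and the other row>3 libraries overlapped with them. The log2 fold change was -0.76 ± 0.34 (SE) in the SI (edgeR adjusted p = 0.179, with the block 0.00138) and -0.32 ± 0.33 (SE) in the LI (edgeR adjusted p = 0.969). Exons of Ccna2 share 510 bases with Exosc9 on the other strand, and whether the counting used strand was not given in the sources used here. Ccnb2 (chromosome 9, 70407692 to 70421547, minus strand) had the SI estimate nearest to 0 of the 41 genes. Its counts were 915, 1075 and 711 in SI centre, 845, 1128 and 645 in SI border and 759.8, 828 and 445 in SI row>3. In the LI, Ccnb2 had 1034, 1264 and 1211 in LI centre, 846, 1209 and 1236 in LI border and 749, 1179 and 1158 in LI row>3. The SI groups overlapped, with SI row>3 replicates 1 and 2 above SI centre replicate 3, and the estimates were -0.40 ± 0.25 (SE) in the SI (edgeR adjusted p = 0.375, with the block 0.0211) and -0.18 ± 0.25 (SE) in the LI (edgeR adjusted p = 0.969).

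Plk1, the polo-like kinase that promotes entry and spindle assembly (chromosome 7, 122159439 to 122169873, plus strand), was counted at 1147, 967 and 722 in SI centre, 1188, 1082 and 838 in SI border and 660.0, 1016 and 278 in SI row>3. In the LI, Plk1 had 1097, 1150.2 and 1065 in LI centre, 911, 1179 and 1053 in LI border and 581, 996 and 845 in LI row>3. In replicate 2 of the SI it was higher in row>3 than in centre, the only gene of the 41 in which any SI pair went that way, whereas in the LI the 3 row>3 libraries all lay below the 3 centre libraries. The estimates were -0.53 ± 0.31 (SE) in the SI (edgeR adjusted p = 0.334, with the block 0.0447) and -0.44 ± 0.30 (SE) in the LI (edgeR adjusted p = 0.898). Cdk1 and Cdc25c had SI estimates of -0.84 and -0.85, neither of which was called by edgeR in the fit to all libraries, while DESeq2 called Cdk1 (DESeq2 adjusted p = 0.0386). With the SI libraries of replicate 3 left out, the SI estimates were -0.70 in Ccnb1 (edgeR adjusted p = 0.477), -0.65 in Ccna2 (edgeR adjusted p = 0.261), -0.32 in Ccnb2 (edgeR adjusted p = 0.467), -0.33 in Plk1 (edgeR adjusted p = 0.433), -0.82 in Cdk1 (edgeR adjusted p = 0.0601) and -0.97 in Cdc25c (edgeR adjusted p = 0.0226).

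Of the 7 genes of the spindle checkpoint and the APC/C, 4 fell in SI row>3 (Ttk, Bub1b, Bub1 and Mad2l1) and all 7 with the block. Ttk, also known as MPS1, is the kinase that starts the checkpoint signal (chromosome 9, 83834689 to 83872389, plus strand), and it had the lowest SI estimate of all 41 genes. Its counts were 719, 788 and 361 in SI centre, 404, 522 and 355 in SI border and 235, 345 and 144 in SI row>3. In the LI, Ttk was at 619, 604 and 460.5 in LI centre, 407, 503 and 444 in LI border and 307, 448 and 317 in LI row>3. The row>3 and centre libraries did not overlap at either site. Ttk fell by 1.35 ± 0.29 (SE) on the log2 scale in the SI (edgeR adjusted p = 0.00302), with edgeR or DESeq2 adjusted p of at most 0.0252 in all 15 alternatives. In the LI its estimate was -0.64 ± 0.28 (SE) (edgeR adjusted p = 0.665, with the block 0.0526).

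Bub1b encodes BUBR1, a component of the complex that inhibits the APC/C (chromosome 2, 118598211 to 118641591, plus strand). Bub1b was counted at 2611, 3259 and 1878 in SI centre, 2007, 2498 and 1790.4 in SI border and 1238, 1678 and 677 in SI row>3. In the LI, Bub1b had 2134, 2227 and 1792 in LI centre, 1958, 1919 and 1795 in LI border and 1559, 1579.9 and 1290.1 in LI row>3. At both sites all row>3 libraries were below all centre libraries. The fall in the SI was 1.10 ± 0.23 (SE) on the log2 scale (edgeR adjusted p = 0.00273, at most 0.0264 in the 15 alternatives), and the LI estimate was -0.47 ± 0.23 (SE) (edgeR adjusted p = 0.730). Ube2c, the ubiquitin-conjugating enzyme that works with the APC/C (chromosome 2, 164769898 to 164778822, plus strand), had 1203, 1293 and 778 in SI centre, 819, 1102 and 855 in SI border and 669, 809 and 407 in SI row>3. In the LI, Ube2c had 1104, 1619 and 1490.2 in LI centre, 928, 1512 and 1449 in LI border and 573, 1309 and 1152 in LI row>3. Its groups overlapped at both sites, and it was not called in the SI in the fit to all libraries (-0.79 ± 0.30 (SE), edgeR adjusted p = 0.101, with the block 0.000572) or in the LI (-0.47 ± 0.30 (SE), edgeR adjusted p = 0.865). Cdc20, the activator that carries the APC/C into anaphase, had -0.54 in the SI, the value nearest to 0 among these 7, and its exons share 53 bases with Elovl1 on the other strand. The SI estimates without the libraries of replicate 3 were -1.37 in Ttk (edgeR adjusted p = 0.000217), -1.0 in Bub1b (edgeR adjusted p = 0.000309), -0.75 in Ube2c (edgeR adjusted p = 0.163) and -0.37 in Cdc20 (edgeR adjusted p = 0.275), and the same 4 genes of this role were called.

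The chromosomal passenger complex corrects wrong attachments and prepares cytokinesis. It consists of the kinase Aurkb and the subunits Incenp, Birc5 (survivin) and Cdca8 (borealin), of which Aurkb and Cdca8 fell in the SI and all 4 with the block. Aurkb (chromosome 11, 69045647 to 69051664, plus strand) was counted at 998, 822 and 779.6 in SI centre, 744, 648 and 606 in SI border and 421, 571 and 211 in SI row>3. In the LI, Aurkb had 686, 914 and 712 in LI centre, 719, 853 and 780.1 in LI border and 557, 656 and 578 in LI row>3. No row>3 library reached the lowest centre library at either site. Aurkb fell by 1.10 ± 0.24 (SE) on the log2 scale in the SI (edgeR adjusted p = 0.00331, at most 0.0238 in the 15 alternatives), and the LI estimate was -0.37 ± 0.24 (SE) (edgeR adjusted p = 0.866). Incenp, the scaffold of the complex (chromosome 19, 9872296 to 9899551, minus strand), had the highest level per length of the 4, 37.7 CPM per kb. Its counts were 4299, 5111 and 3883 in SI centre, 4692, 4798 and 2924 in SI border and 2362, 3917 and 1372 in SI row>3. In the LI, Incenp had 3826, 3471 and 2430.0 in LI centre, 3081, 3162 and 2635 in LI border and 3094, 2547 and 1859 in LI row>3. SI row>3 replicate 2 just exceeded SI centre replicate 3 on this scale, and LI row>3 replicates 1 and 2 were above LI centre replicate 3. Incenp was not called by edgeR in the fit to all libraries (-0.80 ± 0.28 (SE) in the SI, edgeR adjusted p = 0.0771, with the block 0.000231, DESeq2 adjusted p = 0.0435, and -0.37 ± 0.28 (SE) in the LI, edgeR adjusted p = 0.930).

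Cdca8 (chromosome 4, 124918465 to 124939311, minus strand) had 1219.5, 1275 and 969 in SI centre, 902, 1161 and 532 in SI border and 609, 846 and 262 in SI row>3. In the LI, Cdca8 stood at 948, 1096 and 875 in LI centre, 963, 967 and 859 in LI border and 639, 868 and 690.3 in LI row>3. Row>3 was below centre without overlap at both sites. The fall in the SI was 1.0 ± 0.29 (SE) on the log2 scale (edgeR adjusted p = 0.0277), from which the call was lost in 4 of the 15 alternatives, with an edgeR adjusted p of up to 0.111. The LI estimate was -0.40 ± 0.29 (SE) (edgeR adjusted p = 0.915). When the SI libraries of replicate 3 were left out, the estimates became -0.87 in Aurkb (edgeR adjusted p = 0.00408), -0.58 in Incenp (edgeR adjusted p = 0.112) and -0.77 in Cdca8 (edgeR adjusted p = 0.00866), so that Aurkb and Cdca8 were again the called genes of this complex.

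Kinetochores are built on centromeric chromatin marked by Cenpa, and hold microtubules through the NDC80 complex. Of the 5 genes of this role, Nuf2, Ndc80 and Cenpf fell in the SI and all 5 with the block. Their median estimate without the block was -1.05, the lowest among the 7 roles. Cenpf, a large protein of the outer kinetochore (chromosome 1, 189640606 to 189688086, minus strand), was counted at 6833, 8766 and 5325 in SI centre, 5568, 7005 and 4236 in SI border and 3141, 5100.4 and 1828 in SI row>3. In the LI, Cenpf had 5366, 6594 and 4706 in LI centre, 5329, 5890.1 and 4796 in LI border and 3270.2, 4740.4 and 3518 in LI row>3. SI row>3 lay below SI centre in all libraries, and LI row>3 and LI centre overlapped through LI row>3 replicate 2 and LI centre replicate 3. Cenpf fell by 1.05 ± 0.29 (SE) on the log2 scale in the SI (edgeR adjusted p = 0.0203), a call that was lost in 4 of 15 alternatives (edgeR adjusted p up to 0.0966), and its LI estimate was -0.53 ± 0.28 (SE) (edgeR adjusted p = 0.780, with the block 0.0224). Cenpe, the kinetochore motor that moves chromosomes to the spindle equator (chromosome 3, 135212537 to 135273611, plus strand), had 4696, 5816 and 3851 in SI centre, 4583, 4641 and 3474 in SI border and 2747, 4543 and 1279 in SI row>3. In the LI, Cenpe had 3709, 4534 and 3097 in LI centre, 3773, 3904 and 3197 in LI border and 2354, 3179.5 and 2404 in LI row>3. Both sites overlapped, with SI row>3 replicate 2 above SI centre replicate 3, and Cenpe was called with the block but not in the fit to all libraries in the SI (-0.74 ± 0.30 (SE), edgeR adjusted p = 0.132, with the block 0.00299) and not in the LI (-0.51 ± 0.30 (SE), edgeR adjusted p = 0.831).

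Nuf2 and Ndc80, partners in the same complex, had SI estimates of -1.25 and -1.18 and LI estimates of -0.43 and -0.67. Nuf2 did not overlap between SI row>3 and SI centre, whereas Ndc80 did, through SI row>3 replicate 2 (665) and SI centre replicate 3 (649). Leaving out the SI libraries of replicate 3 gave SI estimates of -1.15 in Nuf2 (edgeR adjusted p = 0.00347), -1.13 in Ndc80 (edgeR adjusted p = 0.00200), -0.91 in Cenpf (edgeR adjusted p = 0.00801) and -0.52 in Cenpe (edgeR adjusted p = 0.115), and the median of this role was -0.91.

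Of the 9 spindle genes, 5 fell in the SI (Kif2c, Ckap2, Kif11, Tpx2 and Nusap1) and all but Nek2 with the block. Kif11 is the kinesin that pushes the spindle poles apart (chromosome 19, 37376403 to 37421859, plus strand). Kif11 was counted at 3625, 3699 and 2598 in SI centre, 2092, 2846 and 1818 in SI border and 1544, 2103 and 791 in SI row>3. In the LI, Kif11 had 2769.9, 3639 and 3297 in LI centre, 2179, 3389 and 2921 in LI border and 1605, 2748 and 2350.1 in LI row>3. SI row>3 lay below SI centre without overlap, and it followed centre, border, row>3 in every replicate at both sites. Kif11 fell by 1.16 ± 0.29 (SE) on the log2 scale in the SI (edgeR adjusted p = 0.0118, and 0.0552 without SI row>3 replicate 1), and its LI estimate was -0.53 ± 0.29 (SE) (edgeR adjusted p = 0.780, with the block 0.0347). Kif2c, which takes microtubules apart at the centromere (chromosome 4, 117159639 to 117182639, minus strand), had 899, 1099 and 675 in SI centre, 697, 889 and 514 in SI border and 378, 559 and 223 in SI row>3. In the LI, Kif2c had 502, 727 and 602 in LI centre, 589, 638 and 569 in LI border and 377, 474 and 466 in LI row>3. Neither site overlapped between row>3 and centre. It fell by 1.19 ± 0.26 (SE) on the log2 scale in the SI (edgeR adjusted p = 0.00376, at most 0.0299 in the 15 alternatives), and the LI estimate was -0.48 ± 0.26 (SE) (edgeR adjusted p = 0.780).

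Tpx2, the microtubule factor that activates Aurora A (chromosome 2, 152847964 to 152895321, plus strand), was at 2309, 2626 and 1846 in SI centre, 2163, 2179 and 1874 in SI border and 1318, 1862 and 610.4 in SI row>3. In the LI, Tpx2 was at 2529, 2504 and 1952 in LI centre, 1658, 2248 and 2089.6 in LI border and 1440.2, 1882 and 1600.4 in LI row>3. LI row>3 and LI centre did not overlap, and in the SI row>3 replicate 2 just exceeded centre replicate 3. Tpx2 fell by 0.84 ± 0.26 (SE) on the log2 scale in the SI (edgeR adjusted p = 0.0351), where 5 of 15 alternatives lost the call with adjusted p of up to 0.141, and had -0.50 ± 0.26 (SE) in the LI (edgeR adjusted p = 0.751). Ckap2, which stabilises spindle microtubules, had the lowest LI estimate of the 41 genes (-0.77) and the second lowest of the SI (-1.33). Aurka and Nek2, kinases of the centrosome, had SI estimates of -0.67 and -0.51, and Hmmr and Dlgap5, which bind spindle microtubules, of -0.80 and -0.81. None of these 4 was called by edgeR in the SI in the fit to all libraries, and DESeq2 called Dlgap5 (DESeq2 adjusted p = 0.0430). In the fit that left out the SI libraries of replicate 3, the estimates were -1.0 in Kif11 (edgeR adjusted p = 0.00877), -1.09 in Kif2c (edgeR adjusted p = 0.00126), -0.63 in Tpx2 (edgeR adjusted p = 0.0277), -1.21 in Ckap2 (edgeR adjusted p = 0.0215) and -1.05 in Nusap1 (edgeR adjusted p = 0.0175), and no other gene of this role was called.

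The genes of chromosome structure are 3, of which Mki67 fell in the SI, and all 3 did with the block. Mki67 encodes Ki-67, which coats mitotic chromosomes and is widely used as a marker of cycling cells (chromosome 7, 135689784 to 135716361, minus strand), and it was the most abundant of the 41 per length, at 128 CPM per kb. Mki67 was counted at 30135, 33824 and 26375 in SI centre, 26972, 30301 and 19760.0 in SI border and 17359, 26589 and 10492 in SI row>3. In the LI, Mki67 had 31795, 32340.3 and 25397 in LI centre, 28533, 30820.5 and 26746 in LI border and 22105, 27367 and 21045 in LI row>3. SI row>3 replicate 2 just exceeded SI centre replicate 3, while SI row>3 replicates 1 and 3 were below all SI centre libraries. Mki67 fell by 0.73 ± 0.23 (SE) on the log2 scale in the SI (edgeR adjusted p = 0.0423), less than the median of the 41 genes, and the call was lost in 7 of the 15 alternatives, with adjusted p of up to 0.162. Its LI estimate was -0.34 ± 0.23 (SE) (edgeR adjusted p = 0.891). Top2a, the topoisomerase that untangles sister chromatids (chromosome 11, 98992943 to 99024189, minus strand), was second per length at 55.3 CPM per kb, and had 16450.2, 17613 and 8634 in SI centre, 11343, 13662 and 6645 in SI border and 6649.8, 11238 and 2665 in SI row>3. In the LI, Top2a had 12191, 12528 and 10133 in LI centre, 9745, 10817 and 9558 in LI border and 6008, 8455 and 6649 in LI row>3. The SI spread within groups was wide, with SI row>3 replicate 2 above SI centre replicate 3, while LI row>3 and LI centre did not overlap. Top2a was called with the block at both sites and in the edgeR fit to all libraries at neither (-1.06 ± 0.41 (SE) in the SI, edgeR adjusted p = 0.119, with the block 2.49e-05, and -0.72 ± 0.41 (SE) in the LI, edgeR adjusted p = 0.816, with the block 0.0179). DESeq2 called it in the SI (DESeq2 adjusted p = 0.0247), as did edgeR without the SI libraries of replicate 3. Kif4, the chromokinesin of this role, had -0.59 and -0.44. The same estimates without the SI libraries of replicate 3 were -0.54 in Mki67 (edgeR adjusted p = 0.0341), -0.92 in Top2a (edgeR adjusted p = 0.00222) and -0.49 in Kif4 (edgeR adjusted p = 0.132).

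Of the 7 cytokinesis genes, Ect2, Kif20b, Prc1, Racgap1 and Anln fell in the SI, and all 7 with the block. Ect2 is the exchange factor that activates RhoA at the future furrow (chromosome 3, 27097222 to 27153878, minus strand), and it had the smallest adjusted p of the 41 genes. Ect2 was counted at 1573, 1643 and 1261 in SI centre, 1183, 1349 and 943 in SI border and 733, 818 and 489 in SI row>3. In the LI, Ect2 had 1264, 1668 and 1329.9 in LI centre, 979, 1547 and 1356 in LI border and 686, 1288 and 976 in LI row>3. The highest SI row>3 library was well below the lowest SI centre library, and the LI groups overlapped. Ect2 fell by 1.13 ± 0.24 (SE) on the log2 scale in the SI (edgeR adjusted p = 0.00255, at most 0.0191 in the 15 alternatives), and its LI estimate was -0.52 ± 0.23 (SE) (edgeR adjusted p = 0.669, with the block 0.0188). Prc1, which bundles the microtubules of the central spindle (chromosome 7, 80294450 to 80316259, plus strand), had 3039, 3357 and 2158 in SI centre, 2073, 2937 and 1827 in SI border and 1375, 2058 and 734 in SI row>3. In the LI, Prc1 had 2459, 2643 and 2100.4 in LI centre, 2175, 2403 and 1967 in LI border and 1525, 2101 and 1551 in LI row>3. SI row>3 and SI centre did not overlap. It fell by 1.03 ± 0.27 (SE) on the log2 scale in the SI (edgeR adjusted p = 0.0130, up to 0.0634 in the alternatives, of which 4 of 15 lost the call) and had -0.47 ± 0.26 (SE) in the LI (edgeR adjusted p = 0.801).

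Kif20b, a kinesin of the midbody (chromosome 19, 34922361 to 34975745, plus strand), was counted at 3267, 3346 and 2173 in SI centre, 2649, 3138 and 2098 in SI border and 1438, 2078 and 787 in SI row>3. In the LI, Kif20b was at 2444, 2325 and 1824 in LI centre, 2075, 1940.1 and 1859.6 in LI border and 1646, 1713 and 1379 in LI row>3. Row>3 lay below centre without overlap at both sites, and in the SI the row>3 libraries also lay below all 3 border libraries. Kif20b fell by 1.03 ± 0.24 (SE) on the log2 scale in the SI (edgeR adjusted p = 0.00640, at most 0.0353 in the 15 alternatives), and had -0.47 ± 0.24 (SE) in the LI (edgeR adjusted p = 0.746). Racgap1, which with Kif23 forms the centralspindlin complex, fell by 0.81 ± 0.24 (SE) on the log2 scale in the SI (edgeR adjusted p = 0.0291) while its LI estimate was the highest of the 41 genes (-0.15). Its partner Kif23 was not called by edgeR at either site in the fit to all libraries (-0.88 in the SI and -0.71 in the LI), and DESeq2 called it in the SI (DESeq2 adjusted p = 0.0236). Anln, the ring scaffold anillin, had -0.71 in the SI, and Kif20a, the motor that brings passenger proteins to the midzone, -0.86, the latter called by DESeq2 (DESeq2 adjusted p = 0.0268) and not by edgeR in the fit to all libraries. For SI replicates 1 and 2 alone, the estimates were -1.05 in Ect2 (edgeR adjusted p = 0.00456), -0.89 in Prc1 (edgeR adjusted p = 0.00349), -0.91 in Kif20b (edgeR adjusted p = 0.000838), -0.78 in Racgap1 (edgeR adjusted p = 0.0107), -0.76 in Kif23 (edgeR adjusted p = 0.0411), -0.58 in Anln (edgeR adjusted p = 0.0555) and -0.77 in Kif20a (edgeR adjusted p = 0.0343). Kif23 and Kif20a were thus called in that fit and Anln was not.

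**Figure D4:**
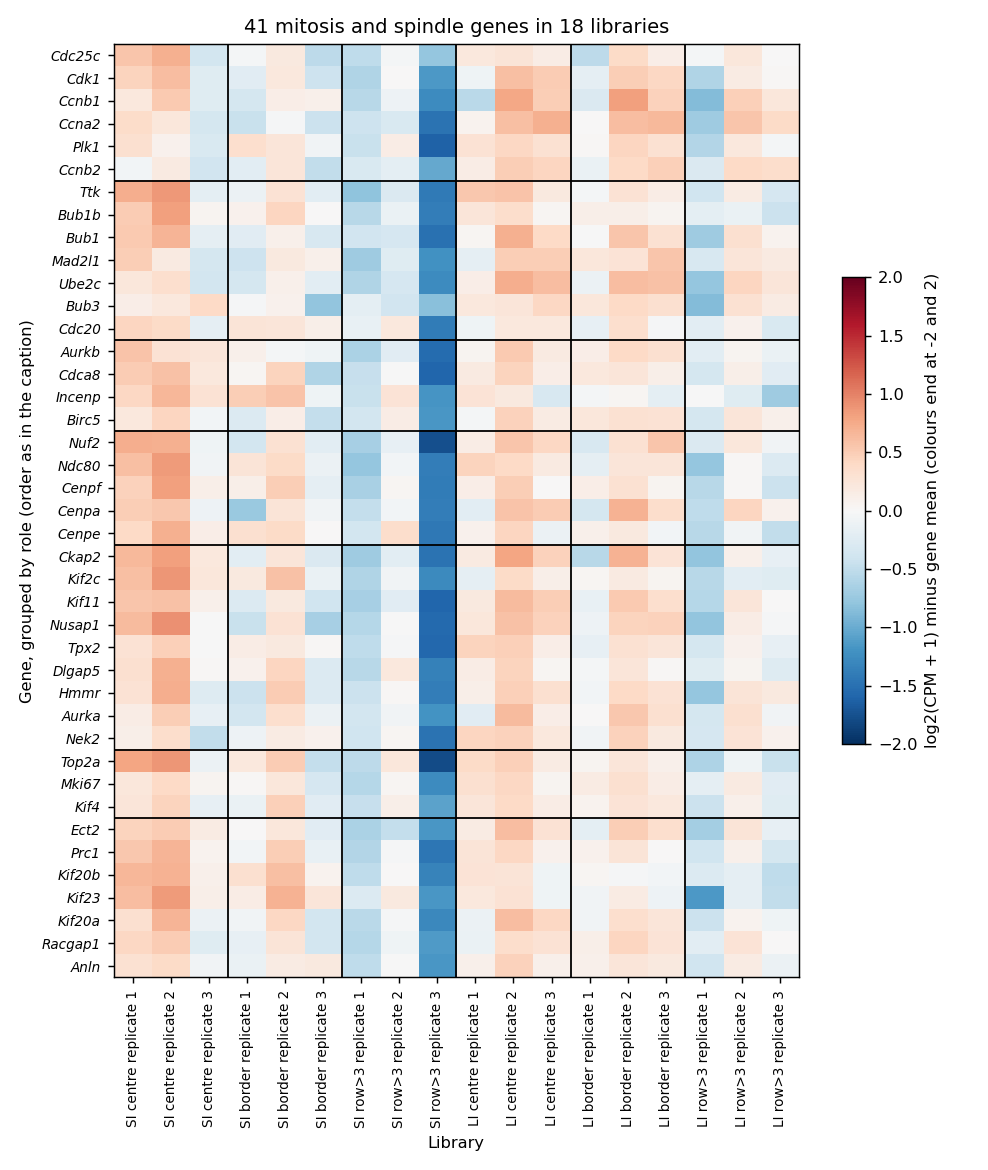
Each of the 41 genes (rows, grouped by role from top to bottom: mitotic entry, checkpoint and APC/C, chromosomal passenger complex, centromere and kinetochore, spindle, chromosome structure, cytokinesis) in each of the 18 libraries (columns, 6 groups of 3). Colour is log2(CPM + 1) minus the gene's mean over all libraries, red above and blue below; SI row>3 replicate 3 is the darkest blue column, and SI centre replicates 1 and 2 are red in nearly every row.

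The mean level of border cells lay between those of centre and row>3 at both sites. In the SI, 39 of the 41 genes had a lower estimate in border than in centre, with a median log2 fold change of -0.33, from -0.79 in Nusap1 to 0.12 in Plk1. None was called by edgeR or DESeq2, each of which gave 1 gene with an unadjusted p under 0.05 (8.98% of all genes with edgeR), and 0.0112% of all genes tested were called. With the replicate block 3 genes fell, Nusap1 (edgeR adjusted p = 0.0109), Kif11 (edgeR adjusted p = 0.0361) and Ckap2 (edgeR adjusted p = 0.0439), against 0.767% of all genes. Nusap1, which bundles spindle microtubules near chromosomes, was counted at 1617, 1969 and 1017 in SI centre against 782, 1275 and 627 in SI border, lower in each replicate though the groups overlapped. Without the SI libraries of replicate 3 the median was -0.37 and 40 genes were estimated lower, with no call by edgeR, 7 unadjusted p under 0.05 (7.06% of all genes) and 0.0573% of all genes called lower, while the block then gave 7 calls, against 0.546%. Markers of other cells moved with this comparison too. The enterocyte markers summed to 308 to 2360.4 CPM in SI border, with 1 of 12 called higher, against 0.0112% of all genes, and 7 with the block, against 1.55%. The goblet markers summed there to 4117 to 13181 CPM and the tuft markers to 236 to 733 CPM, against 24.2 to 339 CPM in SI centre. Neither list had a call in the fit to all libraries, and the block called 1 tuft marker higher and 1 goblet and 1 crypt base marker lower. Without the SI libraries of replicate 3, 3 goblet, 5 of 6 tuft and 1 enterocyte markers were called higher, against 0.905% of all genes. So were 2 of the 4 epithelial markers and 1 immune marker. The part of these cells in the values of the mitotic genes was not tested. In the LI the median was -0.10, from -0.31 in Ttk to 0.094 in Racgap1, 34 genes were estimated lower, and none was called by edgeR with or without the block or by DESeq2, or had an unadjusted p under 0.05 with either, where 0% of all genes were called. The difference between the sites in this comparison had a median of -0.23, with no call and no unadjusted p under 0.05 in either tool, and of -0.27 without the SI libraries of replicate 3, again with no call and no unadjusted p under 0.05 by edgeR.

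Between row>3 and border, all 41 genes were estimated lower in row>3 of the SI, with a median of -0.56, from -0.86 in Kif20b to -0.18 in Birc5. None was called by edgeR (smallest adjusted p = 0.0729, Kif20b), although 16 had an unadjusted p under 0.05, as had 13.6% of all genes, and DESeq2 called 4, against 4.44% of the genes to which it gave an adjusted p. Over all genes edgeR called 0.764% lower. With the replicate block 29 genes fell, against 4.33% of all genes, and without the SI libraries of replicate 3 only Kif20b did (edgeR adjusted p = 0.0222), against 2.56% of all genes, the median then being -0.39. The block without those libraries called 14 genes, against 4.67%. When SI row>3 replicate 2 was the one library left out 13 genes were called, against 1.31% of all genes, and with SI border replicate 3 left out 3 genes, against 2.57%. Of the cell type markers, 1 crypt base marker was called lower in SI row>3 than in SI border in the fit to all libraries. The block called all 5 of them lower, and also 1 enterocyte and 1 goblet marker. It called 2 enterocyte, 2 enteroendocrine, 2 epithelial and 1 goblet markers higher, against 5.44% of all genes called higher. In the fit without the SI libraries of replicate 3, 5 of 7 goblet and 2 enterocyte markers were higher, against 4.67% of all genes. So were 1 enteroendocrine and 1 epithelial marker, while all 5 crypt base and 1 goblet markers were lower. The part of these cells in the values was not tested. Every row>3 library was below every border library in 7 genes in the SI, against 5.24% of all genes tested, and in 8 in the LI, against 5.18%. Over SI replicates 1 and 2 alone it was 15 genes, against 16% of all genes. In the LI the median was -0.33, from -0.56 in Kif23 to 0.037 in Cdc25c, with no call in either tool, no unadjusted p under 0.05 and none of all genes called, although the fit with the block and without the SI libraries of replicate 3 called 4 genes lower, against 0.626% of all genes. Of the markers, crypt base genes alone were called there, 1 lower with the block, against 0.0449% of all genes, and 4 lower in the fit without the SI libraries of replicate 3, against 0.0611%. The full order centre above border above row>3 held in all 3 replicates in 24 of the 41 genes in the SI, against 4.15% of all genes tested, and in 12 in the LI, against 3.01%. In SI replicates 1 and 2 alone it held in 31 genes, against 7.82% of all genes. Cdk1, Bub1, Ttk, Kif11, Top2a, Prc1, Ckap2, Nusap1 and Dlgap5 were in that order at both sites. Both these comparisons share their libraries with the comparison of row>3 and centre.

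The sites were then compared at the same GFP level. In centre cells the 41 genes had a median log2 difference (SI against LI) of 0.011, from -0.44 in Ccnb2 to 0.48 in Kif2c. None was called by edgeR or DESeq2 or had an unadjusted p under 0.05 with either, where 1.99% of all genes were called. How many lay below 0 depended on the scaling, 19 with TMM factors, 9 with RLE factors and 12 with library size alone. Without the SI libraries of replicate 3 the median was 0.23, and Kif20b (edgeR adjusted p = 0.0231) and Kif2c (edgeR adjusted p = 0.0311) were called higher in the SI, against 4.51% of all genes. Markers differed between the sites as well, with 5 of 7 Paneth, 3 of 12 enterocyte and 1 of 5 crypt base markers called higher in SI centre in the fit to all libraries, against 1.19% of all genes. When the SI libraries of replicate 3 were left out, all 7 Paneth, 3 crypt base, 3 enterocyte and 1 goblet markers were called higher. Called lower were 4 enterocyte, 4 goblet, 2 tuft and 2 epithelial markers, against 6.39% of all genes. In border cells the median was -0.17, from -0.75 in Ccna2 to 0.42 in Incenp, with no call in either tool, 1 unadjusted p under 0.05 in each (13.9% of all genes with edgeR) and 1.75% of all genes called. Without those libraries it was -0.051. There 5 Paneth, 6 enterocyte and 1 crypt base markers were called higher in the SI, against 1.15% of all genes. With those libraries left out, 6 Paneth, 5 enterocyte, 3 crypt base, 3 tuft and 1 goblet markers were higher, against 3.7%, and 4 enterocyte markers lower, against 4.4%. The part of the marked cells in the values of either comparison was not tested.

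In row>3 cells 39 of the 41 genes were estimated lower in the SI than in the LI, all but Kif23 and Cenpe, with a median of -0.42. None was called by edgeR (smallest adjusted p = 0.145, Mad2l1) or by DESeq2, with 10 and 6 genes at an unadjusted p under 0.05, as were 15.7% and 14.2% of all genes, and 4.09% of all genes were called by edgeR. Mad2l1, a checkpoint protein that binds CDC20, was counted at 345, 484 and 233 in SI row>3 and 442, 643 and 627 in LI row>3, which overlapped. Without SI row>3 replicate 2 or without LI row>3 replicate 1, 2 genes were called lower, against 0.904% and 1.42% of all genes. In the same comparison 7 of 12 enterocyte and 5 of 7 Paneth markers were called higher in the SI, against 2.76% of all genes. So were 1 crypt base and 1 enteroendocrine marker. The 12 enterocyte markers were Alpi, Fabp1, Fabp2, Apoa1, Apoa4, Sis, Lct, Krt20, Aqp8, Car1, Car4 and Slc26a3. A call on a marker between the sites does not measure how many such cells a library held. Without the SI libraries of replicate 3, 7 enterocyte, 6 Paneth, 3 crypt base and 3 tuft markers were higher, against 6.8% of all genes. That fit also called 2 enteroendocrine, 2 epithelial and 1 stromal markers higher, and 4 enterocyte markers lower, against 5.36% of all genes. The part of these markers in the values was not tested. The estimate rested largely on the libraries that stood apart, since without the SI libraries of replicate 3 the median was -0.087, with 30 of the 41 genes estimated lower and no call, where 5.36% of all genes were called lower.

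A further list held 74 other genes of the same machinery. In SI row>3 against centre 50 fell and none rose, where 5.82% of all genes fell, with a median of -0.98. With the SI libraries of replicate 3 left out it was 49, against 7.09% of all genes, with a median of -0.83. The smallest adjusted p were those of Wee1, the kinase that restrains CDK1 (-1.70 ± 0.23 (SE), edgeR adjusted p = 7.34e-05), of Oip5, which helps to load Cenpa and whose exons share 172 bases with Nusap1 on the other strand (-2.47 ± 0.38, edgeR adjusted p = 0.00019), and of Cit, the citron kinase of the midbody (-1.32 ± 0.23, edgeR adjusted p = 0.00055). These 3 had -1.67, -2.37 and -1.11 when the SI libraries of replicate 3 were left out. Against SI border 5 fell (Wee1, Cit, Kntc1, Spag5 and Pkmyt1), where 0.764% of all genes fell, or 45 with the replicate block, where 4.33% did, and 10 without the SI libraries of replicate 3, where 2.56% did. Against LI row>3, Wee1 (-0.87 ± 0.23, edgeR adjusted p = 0.033) and Ncapg2, a condensin subunit (-0.78 ± 0.21, edgeR adjusted p = 0.038), were lower, where 1.32% of all genes were. When the SI libraries of replicate 3 were left out, Wee1 had -0.58 (edgeR adjusted p = 0.0377) and Ncapg2 -0.56 (edgeR adjusted p = 0.0512). In LI row>3 against centre none was called without the block and 15 with it, against 1.31% of all genes, with a median of -0.49, and 5 were called in the fit without the SI libraries of replicate 3, against 0.917%. None was called in border against centre at either site without the block, and 4 fell in the SI with it, against 0.767% of all genes.

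Of 35 DNA replication genes 30 fell in SI row>3 against centre, or 34 with the replicate block, with a median of -1.24, against 5.82% and 10.5% of all genes. Against SI border 9 fell, or 33 with the block (0.764% and 4.33% of all genes), and against LI row>3 7 were lower (1.32%). These counts were 31, 26 and 8 without the SI libraries of replicate 3 (7.09%, 2.56% and 5.36% of all genes), with 1 gene higher in the last. In LI row>3 against centre none was called without the block and 4 with it (1.31% of all genes), and in the difference between the sites of that comparison none without the block and 13 with it, against 4 of the 74 mitosis genes and 0.808% of all genes. That difference was called in 4 of the 35 and 1 of the 74 without the SI libraries of replicate 3 and without the block. In the other comparisons none of the 35 was called in the fit to all libraries without the block.

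On the annotation, the 41 genes were spread over 18 chromosomes, with at most 6 on 1 of them, chromosome 2. Exons of 10 of them overlap another gene with counts, on the opposite strand in all cases, and in Ccna2, Cdc20, Cdca8, Kif20a, Kif4 and Prc1 that gene had over 10% of the member's CPM. Of these, Cdca8 and Prc1 are among the 20 genes that fell in SI row>3. Per kb of exon the 41 genes ran from 1.75 to 128 CPM, with a median of 11.7.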

How the data were processed

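RNA of sorted crypt cells was sequenced with a stranded SMART-Seq kit in 18 libraries, 3 biological replicates in each of 6 groups. According to the methods, the authors demultiplexed reads with bcl2fastq, trimmed them with Skewer, and ran STAR for both the alignment to mm10 and the gene counts. Which annotation release and which strand setting STAR used is not given in the sources used here. The deposited counts are raw reads per gene and were tested as deposited. The second table that the authors deposited holds normalised counts, a signal equal to the counts divided by DESeq2 size factors, and its values are printed per library.

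Genes with a mean count above 0 (26717 of 43346) were fitted with edgeR 4.0.16 in R 4.3.3 (quasi-likelihood, robust, TMM factors, 1 coefficient per group, 12 residual degrees of freedom), with Benjamini-Hochberg adjusted p under 0.05 as a call. Levels per library are log2(CPM + 1), a log2 fold change is that of the fit, and CPM per kb uses exon lengths of GENCODE M21. The SE of a log2 fold change was derived as its absolute value divided by the square root of the F statistic of its edgeR test. Same-numbered libraries of a site deviated together (r = 0.158 to 0.554 over 9 pairs in the SI and 0.197 to 0.390 over 9 in the LI, across 15998 genes, which are not independent). Between sites r was -0.059 to 0.22 over 27 pairs, over 0.1 in 7 of them, all of replicate 2, so fits that block on the replicate number inside a site are given beside results on the 41 genes that they change. The pairing follows the replicate numbers of the labels and these correlations. The library numbers of a site also run consecutively within a replicate number. Neither states that such libraries share a mouse. Other alternatives were DESeq2 1.42.0, RLE factors or library size alone, other filters, and fits without the SI libraries of replicate 3 or without each library. Counts of order and overlap over SI replicates 1 and 2 alone were added after seeing the data. The 41 genes, their roles, the marker lists and the other lists were chosen with earlier results of these data known. Values in every library are given for the 2 genes of each role with the highest mean normalised count, for Mki67, Ccnb1 and Plk1, and for the 5 called genes with the smallest adjusted p, with other genes where a result turns on them. Motifs were searched on both strands of RefSeq promoter windows (GRCm38.p6). Tpx2, Cdc25c, Ccna2, Aurkb, Incenp, Kif20a and Dlgap5 had none in the table.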

Additional observations from a re-analysis of the deposited data

How the results depend on the processing

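The direction of the 41 estimates in SI row>3 against centre held in every alternative run, while that of the other comparisons turned for some genes, and in LI border against centre and SI against LI centre for most of them, and the number of genes called depended on single libraries and on the pairing. There were 3 replicates a group and a wide spread in SI row>3, and how small a difference these libraries can show was not measured. No cause of a change between settings was tested. With the replicate block within site, the genes called were 3 in SI border against centre, 40 in SI row>3 against centre, 10 in LI row>3 against centre, 29 in SI row>3 against border and 1 in the difference between sites of row>3 against centre, and the block changed no other call. Fitted with that block and without the SI libraries of replicate 3, an alternative chosen after seeing the data, they were 7, 37, 23, 14 and 2, and 4 in LI row>3 against border. Without those libraries and without the block they were 23 in SI row>3 against centre and 1 in LI row>3 against centre. That fit also called 1 in SI row>3 against border and 2 in SI against LI centre. DESeq2 called 26 in SI row>3 against centre and 4 in SI row>3 against border. Whether libraries of both sites with the same replicate number share a mouse is not stated in the sources used here. Their library numbers run consecutively within each replicate number. In the comparisons across sites, a replicate block over all libraries called 0 of the 41 with edgeR in each group. When 1 library was left out at a time, the genes called ran from 6 to 32 in SI row>3 against centre, from 0 to 13 in SI row>3 against border and from 0 to 2 in SI against LI row>3. The share of genes with TTTGAA was 35.3% when only the 250 bases before the start were searched.

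Signs turned only for estimates that were not called, the largest at -0.37 on the log2 scale. Genes whose sign turned in at least 1 alternative were 0 of the 41 in SI row>3 against centre, 3 in LI row>3 against centre, 7 in SI and 28 in LI border against centre, 1 in SI and 5 in LI row>3 against border, 25, 15 and 11 in SI against LI centre, border and row>3, and 17 and 7 in the differences between sites of border and of row>3 against centre. Values follow for the genes with the lowest or highest estimate of a comparison and for those of row>3 against centre. When 1 library was left out at a time, Plk1 ran from -0.051 to 0.28 in SI border against centre, and Racgap1 from -0.040 to 0.19 in LI border against centre. In LI row>3 against centre Aurka ran from -0.44 to 0.035, Ccnb1 from -0.60 to 0.015 and Ccnb2 from -0.29 to 0.011. Birc5 ran from -0.53 to 0.12 in SI row>3 against border, and Cdc25c from -0.21 to 0.25 in LI row>3 against border, where it had -0.054 with library size alone. Kif23 ran from -0.10 to 0.56 in SI against LI row>3. In the difference between sites of row>3 against centre, Plk1 ran from -0.54 to 0.26, and had 0.12 without the SI libraries of replicate 3 and 0.13 when the replicate block was added to that. Library size alone, without scaling factors, moved the median of the 9086 genes in SI row>3 against centre to -0.14 and that of the 41 genes to -1.03, a difference of -0.89 as with TMM.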
